A study of Rattus norvegicus with 20 samples.

Results

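The 10 genes described here belong to the pathway that carries the signal of the interleukin-6 (IL6) family of cytokines into a cell. Among them are the receptor genes Il6r, Il6st, Osmr and Lifr and the kinase genes Jak1 and Jak2. The others are the transcription factor genes Stat3 and Cebpb and the feedback inhibitor genes Socs2 and Socs3. Which cells of the muscle held the mRNA of the 10 genes was not tested. The 10 genes were chosen by name, and all 10 were found among the 32495 named rows of the count table and passed the filter on low counts. Gastrocnemius muscle (a calf muscle) of female Fischer 344 rats was sequenced as stranded total RNA depleted of ribosomal RNA, and the counts of reads per gene were compared between 3 groups that all carried the Ward colorectal carcinoma, so that no tumour-free muscle stands beside them. TUMOUR STD rats ate the standard diet and received no chemotherapy (5 libraries). CHEMO STD rats ate the same diet and received 2 cycles of irinotecan (CPT-11) followed by 5-fluorouracil (5-FU, 50 mg/kg) after the tumour had grown for 2 weeks (7 libraries). CHEMO FO rats received the same drugs and were moved to a diet with fish oil, rich in the fatty acids EPA and DHA, on the first day of chemotherapy (8 libraries). In the chemotherapy arms the muscle was taken 7 days after the final cycle, and the ages of the rats are given without a unit in the sources used here.

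Most IL6 family cytokines bind a receptor chain of their own and then the shared chain gp130, encoded by Il6st. Janus kinases bound to gp130 phosphorylate STAT3, which enters the nucleus and switches on target genes, among them Socs3, whose protein shuts the receptor complex down again. In skeletal muscle the pathway is known both for its part in repair and for its part in the wasting that tumours can cause.

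The depth of a library on named genes was 5422118 to 10857477 counts in TUMOUR STD, 3020821 to 10516783 counts in CHEMO STD and 3035841 to 9119394 counts in CHEMO FO. CHEMO STD replicates 1 and 2 were counted as 1 sample (19 samples, n = 6 in CHEMO STD), because they differed by little more than counting noise: their chi-square per gene was 2.23, where the remaining 58 within-group pairs gave 13.7 to 255. All 9 skeletal muscle markers found in the file were expressed in every group, with a summed level of 129100 to 250300 CPM, the share of a library's counts scaled to a common library size. One library stood apart and touches nearly every result below. CHEMO FO replicate 18 held the highest level of the 19 samples in 18.6% of the 11716 genes tested and the lowest in 18.3%, while no other sample exceeded 11.9% and 14%. The results that leaving it out changed are therefore given also without it. It was singled out after its values had been seen, and no label sets it apart.

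Of the 10 genes, 8 had their highest level of all 19 samples in CHEMO FO replicate 18, and the other 2, Lifr and Socs2, had their lowest level there. The 18.6% and 18.3% of all genes given above are the background for these counts. In the other 7 CHEMO FO samples the levels of the 10 genes overlapped those of the other groups, as the plot of levels by sample shows. For Socs3, most of those samples still lay above every TUMOUR STD sample.

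**Figure D1:**
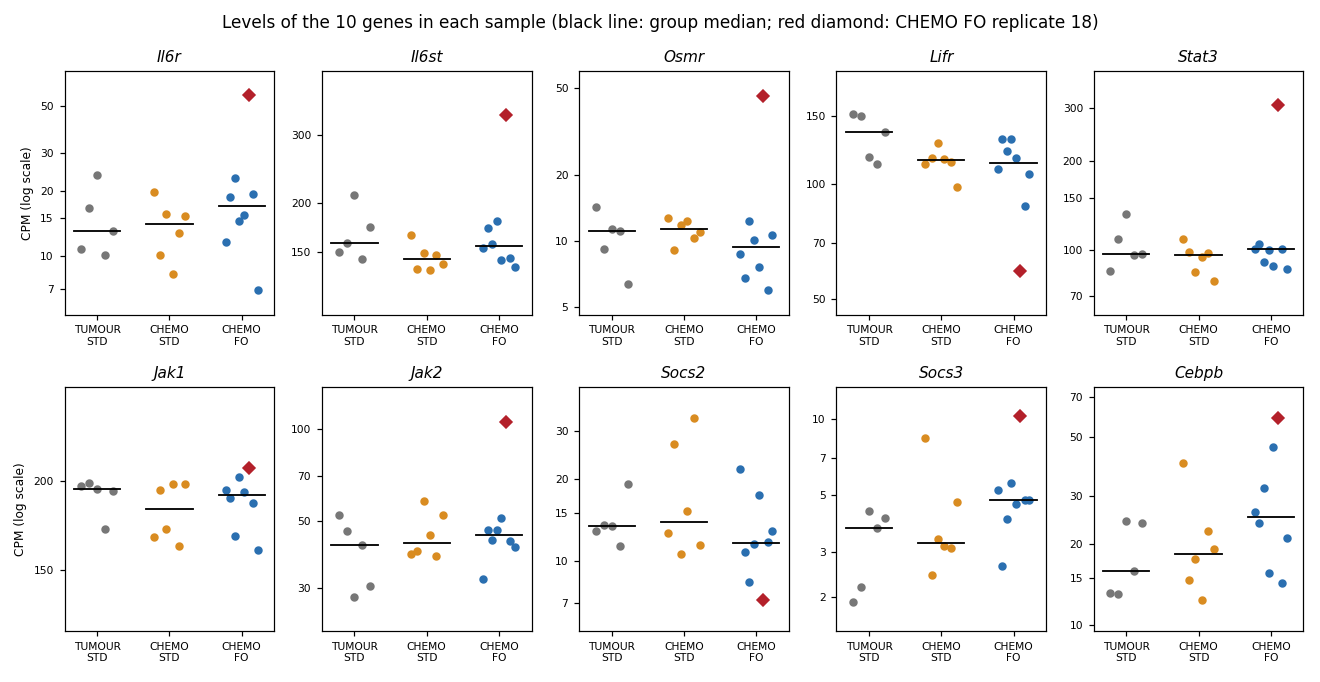
Level of each of the 10 genes (CPM on TMM library sizes, log scale) in the 5 TUMOUR STD, 6 CHEMO STD and 8 CHEMO FO samples. Points are samples, black lines are group medians and the red diamond is CHEMO FO replicate 18, which is at the top in 8 panels and at the bottom for Lifr (59.3 CPM) and Socs2 (7.16 CPM).

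Il6r encodes the receptor chain that binds IL6 itself. In TUMOUR STD its level was 10.8, 16.8, 23.8, 10.2 and 13.1 CPM in replicates 8 to 12. In CHEMO STD it ran from 8.25 to 19.8 CPM, and in CHEMO FO from 6.94 CPM through a median of 17.2 to 55.8 CPM. The 3 groups overlapped, and the value of 55.8 CPM was that of replicate 18, 3.61 times the median of the other CHEMO FO samples. The log2 fold change of CHEMO FO versus CHEMO STD was 0.59 (standard error 0.337, edgeR unadjusted p = 0.0925) with all samples and 0.15 without replicate 18.

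Il6st encodes gp130, the chain that most receptors of the family share. Its mean was 167 ± 26.7 CPM (SD, n = 5) in TUMOUR STD. It was 145 ± 11.7 CPM (SD, n = 6) after chemotherapy on the standard diet and 178 ± 65.6 CPM (SD, n = 8) with fish oil. Replicate 18 stood at 337 CPM, and the other 7 CHEMO FO samples at 137 to 181 CPM, within the range of TUMOUR STD and CHEMO STD together (135 to 210 CPM). CHEMO STD versus TUMOUR STD gave a log2 fold change of -0.20 (standard error 0.187), with p = 0.0801 when mean log2 CPM was compared by exact permutation (two-sided).

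Osmr encodes the receptor chain for oncostatin M. Its level was 14.4, 9.23, 11.3, 11.1 and 6.38 CPM in TUMOUR STD replicates 8 to 12. CHEMO STD was narrow, at 9.16 to 12.7 CPM with a median of 11.4, and CHEMO FO ran from 5.99 CPM through a median of 9.44 to 46.2 CPM. The highest value was again that of replicate 18, and the next highest in that group was 12.4 CPM. Leaving out replicate 18 turned the direction of CHEMO FO versus CHEMO STD, from a log2 fold change of 0.32 (standard error 0.361) to -0.35 (unadjusted p = 0.0752 by edgeR, p = 0.0530 by the exact permutation test). In neither case did Osmr pass the threshold.

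Lifr encodes the receptor chain for leukaemia inhibitory factor, which pairs with gp130. Its level was 152, 150, 118, 112 and 137 CPM in TUMOUR STD replicates 8 to 12, against 98.04 to 128 CPM in CHEMO STD and 59.3 to 131 CPM in CHEMO FO. Both chemotherapy arms reached into the lower part of the TUMOUR STD range, and replicate 18 was the lowest sample, at 50.7% of the median of the other CHEMO FO samples. The log2 fold change was -0.22 (standard error 0.160, unadjusted p = 0.176) in CHEMO STD versus TUMOUR STD and -0.31 (standard error 0.150, unadjusted p = 0.0488, adjusted p = 0.551, edgeR) in CHEMO FO versus TUMOUR STD. The second passed the p threshold but not 1.5-fold. Without replicate 18 it was -0.21 (edgeR unadjusted p = 0.0757). By exact permutation the p values of these differences were 0.0628 and 0.0824.

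Jak1 and Jak2 encode kinases that sit on the receptor chains. Jak1 stayed at 171 to 199 CPM in TUMOUR STD, 162 to 198 CPM in CHEMO STD and 160 to 209 CPM in CHEMO FO, ranges that overlap almost wholly. Its log2 fold changes lay between -0.07 and 0.05 in the 3 comparisons, and the 95% confidence interval of CHEMO FO versus CHEMO STD, -0.15 to 0.24, lies inside 1.5-fold in both directions. Without replicate 18 that change was 0.03. Jak2 was 28.1 to 52.2 CPM in TUMOUR STD, 38.2 to 58.1 CPM in CHEMO STD and 32.2 to 50.8 CPM in the other 7 CHEMO FO samples, with 106 CPM in replicate 18. Its log2 fold change of CHEMO FO versus TUMOUR STD was 0.38 (standard error 0.226, unadjusted p = 0.107), and 0.14 without that sample.

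Stat3 was 85.3, 109, 132, 96.2 and 97.1 CPM in TUMOUR STD replicates 8 to 12. It ran from 78.6 CPM through a median of 96.2 to 109 CPM in CHEMO STD and from 86.6 CPM through a median of 100.6 to 309 CPM in CHEMO FO. Without replicate 18 the CHEMO FO samples formed the tightest of the groups, at 96.2 ± 7.16 CPM (SD, n = 7), and all lay inside the range of TUMOUR STD. The level of 309 CPM in replicate 18 was 3.08 times the median of those samples, and the gene's log2 fold change of CHEMO FO versus CHEMO STD fell from 0.40 (standard error 0.235) to 0.04 once it was left out. These are levels of mRNA, and the phosphorylation that activates STAT3 was not measured.

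Socs2 encodes an inhibitor best known for limiting growth hormone signalling through STAT5. In CHEMO STD it was 26.9 CPM in replicate 3 and 33.5 CPM in replicate 6, while the other 4 samples were at 10.6 to 15.2 CPM. TUMOUR STD was at 11.3 to 19.1 CPM and CHEMO FO at 7.16 to 21.6 CPM, so that the groups overlapped apart from these high samples of the standard diet. CHEMO FO versus CHEMO STD gave a log2 fold change of -0.52 (standard error 0.267, unadjusted p = 0.0641, edgeR) and missed both thresholds. Leaving out replicate 18 gave -0.41. The change was -0.24 without CHEMO STD replicate 6, and it passed both thresholds without CHEMO STD replicates 1 and 2 (-0.62), 4 (-0.65) or 7 (-0.63) or CHEMO FO replicate 13 (-0.66) or 17 (-0.61).

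Socs3 encodes the inhibitor that STAT3 itself induces, and its counts were low, with 8 in the library that held fewest. Its level was 1.91, 2.18, 4.36, 3.71 and 4.07 CPM in TUMOUR STD replicates 8 to 12. CHEMO STD ran from 2.44 CPM through a median of 3.27 to 8.41 CPM, the highest in the sample made of replicates 1 and 2. CHEMO FO ran from 2.64 CPM through a median of 4.80 to 10.2 CPM. Of the 8 CHEMO FO samples, 6 lay above every TUMOUR STD sample, and the highest was replicate 18. In CHEMO FO versus TUMOUR STD the gene changed by 0.72 on the log2 scale (standard error 0.328, unadjusted p = 0.0393, adjusted p = 0.541, edgeR), past both thresholds, and the exact permutation test gave p = 0.0521. It was 0.48 without replicate 18 and was not called then, nor without TUMOUR STD replicate 8 (0.60) or 9 (0.59).

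Cebpb encodes a transcription factor that IL6 signalling induces and that works beside STAT3 on acute phase genes. Its level was 13.2, 13.0, 24.4, 15.8 and 23.9 CPM in TUMOUR STD replicates 8 to 12. In CHEMO STD it ran from 12.4 CPM through a median of 18.4 to 40.0 CPM, and in CHEMO FO from 14.4 CPM through a median of 25.1 to 58.7 CPM. The groups overlapped widely, with the sample of replicates 1 and 2 the highest of CHEMO STD and replicates 17 (45.8 CPM) and 18 the highest of CHEMO FO. CHEMO FO versus TUMOUR STD gave a log2 fold change of 0.74 (standard error 0.319, unadjusted p = 0.0294, adjusted p = 0.524, edgeR), past both thresholds, while the exact permutation test gave p = 0.111. The call was lost without replicate 18 (0.53), CHEMO FO replicate 17 (0.64) or TUMOUR STD replicate 8 (0.67), 9 (0.64) or 11 (0.70).

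In CHEMO STD versus TUMOUR STD, 0 of 10 passed an unadjusted p of 0.05 with a change of at least 1.5-fold by edgeR, 0 passed p alone, and DESeq2 and limma voom also called 0; over all genes 2.38% were called. There were 5 higher and 5 lower, with a median log2 fold change of 0.02 against 0.00 over all genes tested. The widest changes were those of Socs3 (0.45, standard error 0.344) and Socs2 (0.36, standard error 0.296). That of Socs3 was 0.07 without the sample of replicates 1 and 2, and that of Socs2 was 0.10 without CHEMO STD replicate 6.

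Fish oil against the standard diet under chemotherapy also gave 0 of 10 past both thresholds or past p alone by edgeR, and 0 by DESeq2 and limma voom, against 1.66% of all genes called. In CHEMO FO versus CHEMO STD, 8 genes were higher and 2 lower, and the median log2 fold change was 0.28 against -0.01 over all genes. Without replicate 18 the median was 0.02. Single samples also moved calls: without the CHEMO STD sample of replicates 1 and 2, Socs3 (0.66), Cebpb (0.80) and Socs2 (-0.62) passed, and without CHEMO FO replicate 20 Il6r did (0.74).

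In CHEMO FO versus TUMOUR STD, 2 of 10 genes were called, Socs3 and Cebpb, both higher. Over all genes 3.6% were called in either direction and 1.09% were called higher. None of the 10 passed an adjusted p of 0.05 (0 by edgeR, 0 by DESeq2 and 0 by limma voom), 3 passed an unadjusted p of 0.05 by edgeR, and DESeq2 and limma voom each called 2. Without replicate 18 the count was 0, as it was without TUMOUR STD replicate 8 or 9. Of 14 tested glucocorticoid response genes, a list that holds Cebpd and Mt2A but no member, 6 were called higher in the same comparison and 3 without replicate 18, and of 10 muscle atrophy genes 4 and 1; their part in the changes of Socs3 and Cebpb was not tested. This comparison changes drug and diet together, and it shares its samples with the other comparisons, so the values of one do not stand as support for another.

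**Figure D2:**
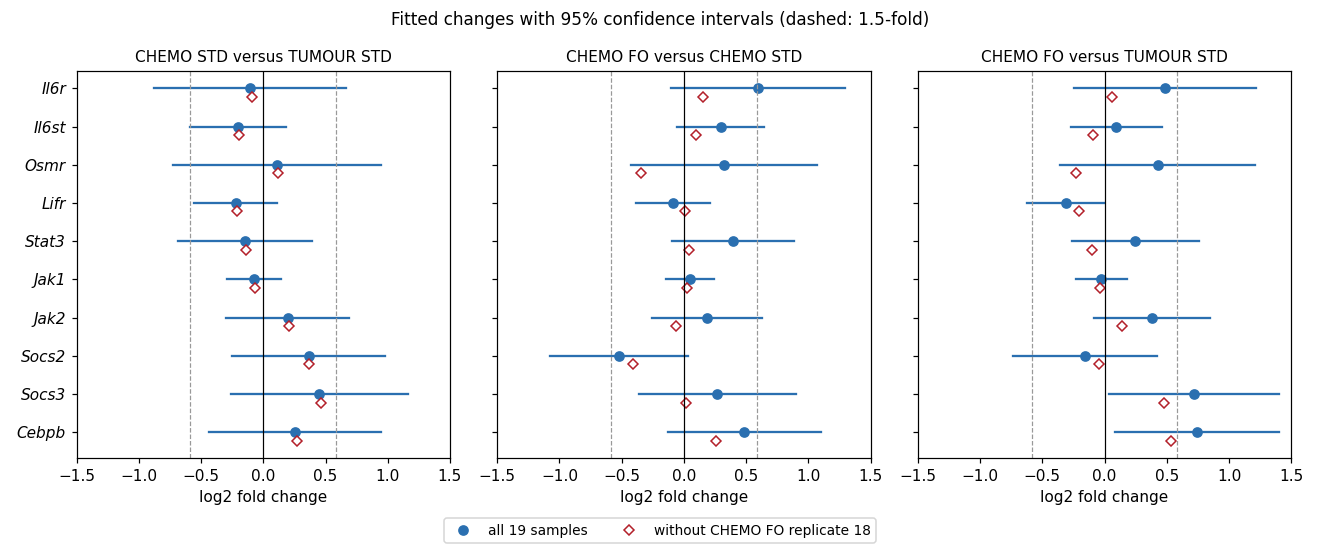
Log2 fold change of the 10 genes in the 3 comparisons, from edgeR's quasi-likelihood fit of all 19 samples (blue points, with bars for 95% confidence intervals) and without CHEMO FO replicate 18 (open red diamonds). Dashed lines mark 1.5-fold. In the panels with CHEMO FO most diamonds lie nearer 0 than the points, and for Osmr they cross it (0.32 to -0.35 against CHEMO STD).

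Pairs of the 10 genes were compared across the 19 samples after the group means of log2 CPM had been taken out, with Pearson's r and Spearman's rho and permutation within groups, over 6 pairs. The points share library depth and all other features of a library. Il6r and Il6st, the 2 chains that form the IL6 receptor, rose and fell together with r = 0.827 (permutation p = 0.00026, adjusted p = 0.00156) and rho = 0.653 (permutation p = 0.00284, adjusted p = 0.0170). Without CHEMO FO replicates 18 and 20, the samples farthest from the median of Il6r, r was 0.631, and without replicate 18 alone it was 0.666 (permutation p = 0.00411, adjusted p = 0.0247). It was the only one of the 6 pairs whose r passed the adjusted threshold with and without replicate 18.

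Socs3 and Cebpb gave r = 0.636 (permutation p = 0.00619, adjusted p = 0.0186) and rho = 0.539 (permutation p = 0.0222, adjusted p = 0.0665). Without CHEMO FO replicate 18 alone r was 0.514 (permutation p = 0.0426, adjusted p = 0.128). It was 0.270 without that sample and the CHEMO STD sample of replicates 1 and 2, the farthest from the median of Socs3, so that passing the adjusted threshold rests on those samples. For Stat3 and Socs3, the factor and its feedback inhibitor, r was 0.551 (permutation p = 0.0288, adjusted p = 0.0517) and rho 0.244 (permutation p = 0.294), and r was 0.257 without replicate 18 and 0.114 without the 2 samples farthest from the median of Stat3. Stat3 and Cebpb gave r = 0.519 (permutation p = 0.0345, adjusted p = 0.0517) and rho 0.202 (permutation p = 0.407), and r was 0.183 without replicate 18 and 0.034 without those samples. Stat3 and Osmr gave r = 0.762 (permutation p = 0.0919, adjusted p = 0.110), rho 0.109 (permutation p = 0.663) and r was -0.186 without replicate 18 and -0.342 without them. Jak1 and Il6st gave r = 0.352 (permutation p = 0.194) and rho 0.274 (permutation p = 0.256), and r was 0.110 without replicate 18 and 0.215 without the 2 samples farthest from the median of Jak1.

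**Figure D3:**
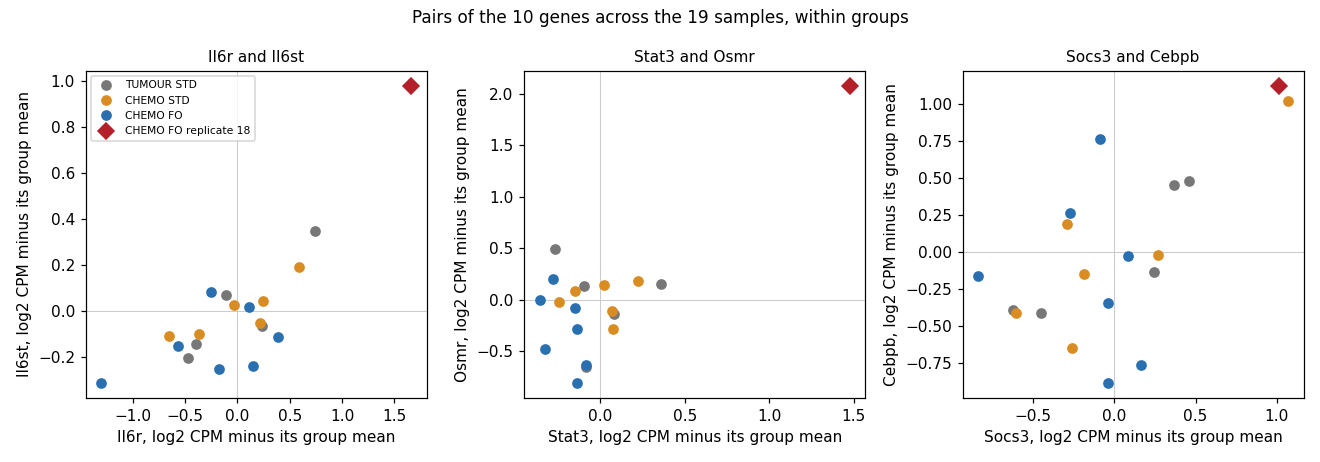
Log2 CPM minus the group mean for 3 pairs of genes in the 19 samples, coloured by group, with CHEMO FO replicate 18 as a red diamond. Il6r and Il6st line up also among the other 18 samples (r = 0.666), whereas Stat3 and Osmr do not (r = -0.186).

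The genes whose within-group pattern was most like that of a member, by Pearson's r over the 19 samples, were also looked up, as a description only. For Il6r they were Foxo1 (r = 0.906), Clec10a (0.885) and Mrc1 (0.875), and Clec10a and Mrc1 are known as macrophage lectin receptors. For Il6st they were Pdpn (r = 0.952), Polr1b (0.949) and Rin2 (0.935), and for Stat3 they were Pdpn (r = 0.934), Slc39a14 (0.928) and Il6st (0.927). For Osmr they were Ftsj3 (r = 0.906), the locus LOC299282 (0.906) and Gadd45a (0.900). For these 4 members 0 of the 3 genes were among the 3 most alike once replicate 18 was left out.

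The patterns of Socs3 and Cebpb depended less on that sample. Cebpb was most like Cebpd (r = 0.855), a gene of the same family, Errfi1 (0.837) and Zfp36 (0.811), and all 3 were again its nearest genes over the other 18 samples. Socs3 was most like Eif4h (r = 0.880), Aprt (0.873) and Stom (0.846), of which the first 2 stayed. Lifr was most like Nr3c2 (r = 0.930), the mineralocorticoid receptor gene, which stayed, Atp8a1 (0.900) and Akap13 (0.898). Socs2 was most like Irs1 (r = 0.813), an adaptor of the insulin receptor, which stayed, Grip2 (0.759) and Fmn1 (0.740). Jak1 was most like Mta3 (r = 0.835), which stayed, Fzd3 (0.794) and Slc52a2 (0.763), and Jak2 was most like Zfp281 (r = 0.908), the locus AABR07035787.1 (0.894) and Gnpnat1 (0.891), of which the last stayed.

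The rest of the pathway was read from 5 lists of other ligands, receptors, kinases and STATs, inhibitors and STAT3 target genes, 71 genes in all, of which 68 were in the file and 48 were tested. Ligand mRNA was scarce in the muscle: 7 of the 10 ligand genes lay under the filter on low counts. Il6 had 12 counts in CHEMO FO replicate 18, 1 count in CHEMO STD replicate 3 and 0 in the other 17 samples, where 0 counts allow up to 0.150 to 0.993 CPM by depth (3 counts of the total, counting error only). Osm, the ligand of Osmr, had 12 counts in replicate 18 (1.09 CPM) and was at 1.18 CPM or less elsewhere, and Lif was at 0.708 CPM or less in every sample. Of the tested ligands, Ctf1 was at 0.585 to 5.71 CPM and Cntf at 1.53 to 6.35 CPM, and neither was called in any comparison.

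Of the 3 other receptor genes tested (Il11ra1, Cntfr and Lepr), none was called. Il11ra1, the receptor chain for interleukin-11, ran from 30.9 to 50.8 CPM over the 19 samples, with medians of 44.6, 37.6 and 39.5 CPM in TUMOUR STD, CHEMO STD and CHEMO FO. Among 7 kinase and STAT genes none was called in the fit of all samples. Stat5b, which carries growth hormone signals, had medians of 159, 155 and 163 CPM and was at 196 CPM in replicate 18, while Stat5a was at 7.98 CPM there against a median of 25.6 CPM in the other CHEMO FO samples. Other abundant genes of this list were Stat6 and Tyk2, the former activated by interleukin-4 and the latter a Janus kinase. Without replicate 18, the lymphoid kinase gene Jak3, at 4.71 CPM or less, was called lower in CHEMO FO than in CHEMO STD (log2 fold change -1.04, edgeR unadjusted p = 0.0370). The 4.71 CPM was CHEMO STD replicate 7 (next 2.62 CPM), in which lymphocyte markers summed to 158 CPM, and their part in the difference was not tested.

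Among the inhibitors, Cish and Ptpn2 were higher after chemotherapy. Cish encodes a SOCS family protein that is induced by STAT5 downstream of growth hormone and other cytokines. It was at 3.47, 10.7, 21.4, 3.55 and 12.0 CPM in TUMOUR STD replicates 8 to 12, against 8.25 to 58.4 CPM (median 35.1) in CHEMO STD and 5.35 to 65.9 CPM (median 33.6) in CHEMO FO. Of the 6 CHEMO STD samples, 4 lay above every TUMOUR STD sample. CHEMO STD versus TUMOUR STD gave 1.73 on the log2 scale (standard error 0.587, unadjusted p = 0.00730, adjusted p = 0.719, edgeR) and CHEMO FO versus TUMOUR STD gave 1.66 (standard error 0.567, unadjusted p = 0.00758, adjusted p = 0.486), comparisons that share the TUMOUR STD samples. Both calls held with each sample left out in turn, over 1.52 to 2.21 and 1.45 to 2.14, and between the diets the change was -0.07. In replicate 18, where Stat3 was highest, Cish was lowest of the CHEMO FO samples, at 12.4% of the median of the others.

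The stretch of sequence before the start of Cish is shown because Cish had the widest called change of the pathway after chemotherapy on the standard diet. It holds 4 copies of TTCNNNGAA, the palindrome (the same on both strands) that STAT dimers recognise, and they do not overlap. The bases are those at 241 to 111 before the annotated start, chr8:116850728-116850858 on the plus strand of the RefSeq assembly GRCr8, a later build than the Rnor 6 assembly behind the counts, and capitals mark the 4 copies.
Cish: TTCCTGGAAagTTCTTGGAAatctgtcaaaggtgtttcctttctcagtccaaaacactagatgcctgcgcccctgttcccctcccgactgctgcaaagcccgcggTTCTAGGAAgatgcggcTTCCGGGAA
Of all 33469 RefSeq windows of 250 bases before a start, 7.67% hold at least 1 copy. The share of windows with 4 copies was not counted, so that 7.67% is no background for the 4 copies of Cish. Windows were found for 8 of the 10 members (all but Jak1 and Socs2), and 0 of the 8 hold these letters, which says nothing of sites elsewhere. A match is a description of the letters and not a bound site.

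Ptpn2 encodes a phosphatase that removes phosphate from Janus kinases and STATs. It was at 10.2, 12.8, 7.94, 12.6 and 10.1 CPM in TUMOUR STD replicates 8 to 12, at 11.6 to 21.1 CPM (median 17.7) in CHEMO STD and at 11.6 to 31.5 CPM (median 13.8) in CHEMO FO. In CHEMO STD, 5 of 6 samples lay above all TUMOUR STD samples. Its log2 fold change was 0.66 (standard error 0.236, unadjusted p = 0.0108, adjusted p = 0.719, edgeR) in CHEMO STD and 0.67 (standard error 0.224, unadjusted p = 0.00674) in CHEMO FO, each against TUMOUR STD. The first fell below 1.5-fold without CHEMO STD replicate 6 or TUMOUR STD replicate 10 and the second without TUMOUR STD replicate 10 or CHEMO FO replicate 18 (0.47). Pias3, which binds STAT3 and blocks its contact with DNA, was lower in CHEMO FO than in TUMOUR STD (log2 fold change -0.60, standard error 0.176), a change just past 1.5-fold whose call was lost without any of TUMOUR STD replicates 9, 10 and 12 or CHEMO FO replicates 18 and 19. The other 10 tested inhibitors were not called, among them Ptpn11 at 271 to 404 CPM, Socs6 at 26.0 to 67.4 CPM, Pias2 at 21.5 to 38.7 CPM and Socs5 at 17.1 to 31.7 CPM.

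STAT3 target genes did not move as a block after chemotherapy. In CHEMO STD versus TUMOUR STD, 3 of 22 tested targets were called, all lower, and the median change over the list was 0.00 on the log2 scale. Over all 11716 genes tested, 170 were called lower and 109 higher. Without replicate 18, which is in neither group but in the shared estimate of the spread, Cebpd (0.98) and Myc (0.67) were also called, both higher. The 3 were Fos and Egr1, which are immediate early genes that many signals induce, and the cyclin gene Ccnd1. Ccnd1 was 16.1, 17.9, 20.3, 22.9 and 26.6 CPM in TUMOUR STD replicates 8 to 12 and 8.5 to 15.3 CPM in CHEMO STD, so that these groups did not overlap, and 3.28 to 14.9 CPM in CHEMO FO, which did not overlap with TUMOUR STD either. Its log2 fold changes were -0.86 (standard error 0.253, unadjusted p = 0.00246, adjusted p = 0.719, edgeR) and -0.93 (standard error 0.237, unadjusted p = 0.000717, adjusted p = 0.457), and both calls held with each sample left out. The lack of overlap rests on the same values as these calls, and the share of all genes tested without overlap is not given here. Egr1 was 7.27 to 13.9 CPM in TUMOUR STD and 3.05 to 8.04 CPM in CHEMO STD (log2 fold change -0.98, standard error 0.274), a call that also held with each sample left out.

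Fos was at its lowest after chemotherapy on the standard diet. It was at 14.5 to 30.3 CPM in TUMOUR STD, 6.41 to 14.7 CPM in CHEMO STD and 10.8 to 40.1 CPM in CHEMO FO. Its change was -1.04 on the log2 scale (standard error 0.297) in CHEMO STD versus TUMOUR STD and 1.23 (standard error 0.274, unadjusted p = 0.000183, adjusted p = 0.974, edgeR) in CHEMO FO versus CHEMO STD, comparisons that share the CHEMO STD samples. The second was 1.05 without replicate 18 and was called with each sample left out.

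In CHEMO FO versus CHEMO STD, 19 of the 22 targets were higher and 3 were called, Fos, Nfil3 and Mt2A, and the median change over the list was 0.37 on the log2 scale. Over all 11716 genes tested, 72 were called higher. Leaving out replicate 18 gave a median of 0.02 and 1 called gene, Fos. Mt2A, a metallothionein gene, was at 725 CPM in replicate 18 and at 0.611 to 11.1 CPM in the other 18 samples, and its log2 fold change fell from 5.38 to 0.91 without it. Nfil3, a transcription factor gene, was at 143 CPM there and at 51.7 CPM or less elsewhere, and its change fell from 0.93 to 0.43. In CHEMO FO versus TUMOUR STD, 6 targets were called higher (Mt2A, Cebpd, Nfil3, Myc, Timp1 and Pim1) and Ccnd1 lower. Over all 11716 genes tested, 128 were called higher and 294 lower. The median change over the list was 0.25 on the log2 scale, and -0.03 without replicate 18.

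Of those 6, Cebpd, Nfil3, Myc and Pim1 were still called higher without replicate 18, beside 69 of all 11583 genes tested in that fit. Cebpd, the relative of Cebpb, was at 4.51 to 14.3 CPM in TUMOUR STD and at 10.2 to 36.5 CPM in the other 7 CHEMO FO samples, with 92.0 CPM in replicate 18. It changed by 1.60 on the log2 scale (standard error 0.527, unadjusted p = 0.00605, edgeR) and 0.99 without that sample. Nfil3 changed by 1.43 (standard error 0.404) and by 0.94 without it, and Myc by 1.31 (standard error 0.443) and 0.69. Pim1, a kinase gene, changed by 0.62 and lost its call without any of TUMOUR STD replicates 8, 10 and 12 or CHEMO FO replicates 16 and 19. Timp1 turned from 1.27 to -0.105 without replicate 18. DESeq2 gave -0.082, but its default settings can replace outlying counts in a group as large as CHEMO FO. That value is therefore no separate check on replicate 18. The call of Timp1 held in 9 of the 19 fits that each left out 1 sample. That of Mt2A was lost without replicate 18 alone (5.49 to 0.91). The most abundant targets, Vegfa (94.9 to 251 CPM), Bcl6 (28.4 to 71.7 CPM) and Hif1a (31.3 to 58.8 CPM), were not called in any comparison.

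**Figure D4:**
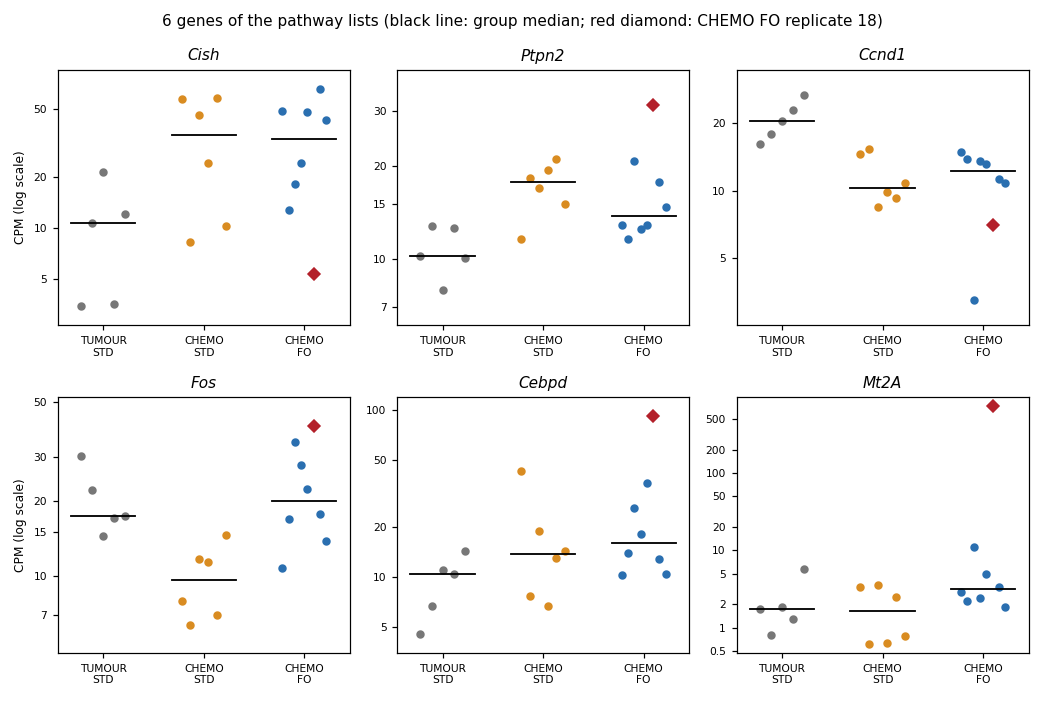
Level (CPM on TMM library sizes, log scale) of 6 genes of the pathway lists in the 19 samples, with group medians as black lines and CHEMO FO replicate 18 as a red diamond. All 6 genes were called in a comparison, and the values drawn are those that were tested. Ccnd1 does not overlap between TUMOUR STD and the chemotherapy arms, Cish is higher in most chemotherapy samples but not in replicate 18 (5.35 CPM), and Mt2A is at 725 CPM in replicate 18.

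Over the 5 lists together, 5 of 48 tested genes were called in CHEMO STD versus TUMOUR STD (2 higher and 3 lower), 3 in CHEMO FO versus CHEMO STD (all higher) and 10 in CHEMO FO versus TUMOUR STD (8 higher and 2 lower). The backgrounds are the 2.38%, 1.66% and 3.6% of all genes given above. None of the 48 passed an adjusted p of 0.05 (0 by edgeR, DESeq2 and limma voom alike), while 7, 4 and 14 passed an unadjusted p of 0.05 by edgeR. Without replicate 18 the counts of genes called were 7, 2 and 6. In the second comparison it was 7 without the CHEMO STD sample of replicates 1 and 2, and 5 without CHEMO STD replicate 7 or CHEMO FO replicate 13, 14 or 20.

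Replicate 18 itself was high across much of the pathway below the receptor. Of the 22 STAT3 target genes tested, 16 had their highest level of all samples there and none its lowest, against the 18.6% background given above. Timp1, an inhibitor of matrix proteases, was at 60.5 CPM (12.9 times the median of the other CHEMO FO samples), Cebpd at 6.65 times, Myc at 5.60 times, Fgl2 at 5.16 times and the receptor gene Il4r at 3.15 times that median. Of the 13 inhibitors, 3 were highest there, the phosphatase genes Ptpn1 and Ptpn2 and Socs6, and of the 3 other receptors none. Among the members the same ratio ran from Osmr (5.27 times the median) and Il6r (3.61) through Stat3 (3.08), Jak2 (2.46), Cebpb (2.45), Il6st (2.19) and Socs3 (2.14) to Jak1 (1.11).

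Other gene lists moved in the same sample, and their part in these values was not tested. The summed level of 12 macrophage markers was 804 CPM in replicate 18, against 225 to 409 CPM in TUMOUR STD, 288 to 522 CPM in CHEMO STD and at most 371 CPM in the other CHEMO FO samples, and 6 of the 12 were highest there. The rise was uneven: Cd163 stood at 272 CPM (7.84 times the median of the other CHEMO FO samples) and Mrc1 at 166 CPM (3.16 times), while Csf1r was at 0.981, Lyz2 at 1.00 and Adgre1 at 0.662 times that median. That of 9 muscle markers was 129100 CPM, against 177500 to 249000 CPM in TUMOUR STD and 181000 to 226300 CPM in CHEMO STD, and 7 of them were lowest there. Of 14 tested glucocorticoid response genes 11 were highest there, among them Mt2A and Cebpd, which are also on the list of STAT3 target genes. The sum over all 15 genes of that list was 3424 CPM, and at most 1735 CPM elsewhere. Pdk4 alone was at 1112 CPM in replicate 18 and at 1045 CPM in CHEMO FO replicate 17. Of 10 muscle atrophy genes 9 were highest in replicate 18 (sum 7483 CPM, at most 2444 CPM elsewhere). The 8 neutrophil markers summed to 2.27 CPM in replicate 18 and to at most 7.06 CPM in any sample, with 4 of the 8 at 0 counts there. In whole muscle, fewer cells of a type and less RNA per cell cannot be told apart. Replicate 18 was also the deepest CHEMO FO library, at 9119394 counts against 7570603 in the next deepest. Its TMM factor was 1.21 against 0.934 to 1.06 in the other samples.

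**Figure D5:**
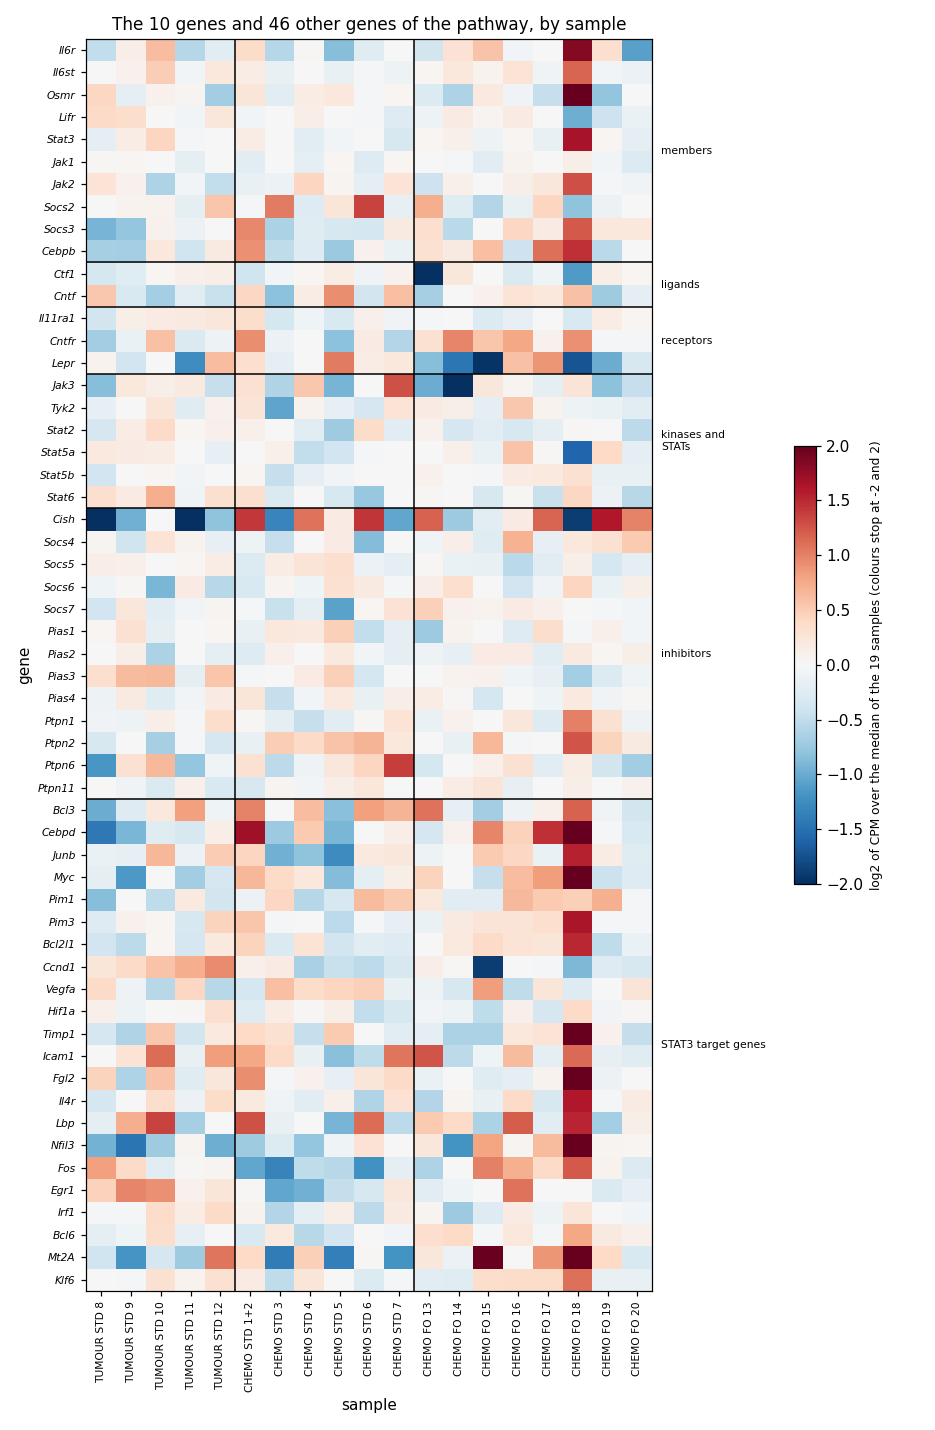
Log2 of the CPM over the median of the 19 samples for the 10 members and 46 of the tested genes of the pathway lists (rows) in each sample (columns, by group), with colours stopping at -2 and 2. The column of CHEMO FO replicate 18 is red for 7 members and most STAT3 target genes. It is blue for Cish, Lepr, Stat5a, Ctf1, Ccnd1 and the members Lifr and Socs2, among others. Cish is also blue in several TUMOUR STD samples.

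Markers of other cell types also varied between samples, and their part in the members' values was not tested. Keratinocyte markers summed to 521 CPM in one TUMOUR STD sample (replicate 10) and 112 CPM in one CHEMO FO sample (replicate 16) and to 8.05 CPM or less in CHEMO STD, and lymphocyte markers to 158 CPM in one CHEMO STD sample (replicate 7) and to 37.5 CPM or less in TUMOUR STD. Without these 3 samples and replicate 18 together, 0, 0 and 1 of the 10 members were called in the 3 comparisons, the 1 being Cebpb in CHEMO FO versus TUMOUR STD. The summed satellite cell markers stayed within 44.9 to 76.3 CPM over all samples, but single markers moved in opposite directions in replicate 18. Myf5 (5.44 CPM) and Chrna1 (9.43 CPM) had their highest level of the 19 samples there, and Myod1 (9.97 CPM) and Megf10 (1.72 CPM) their lowest. Endothelial markers ran from 167 to 314 CPM, adipocyte markers from 361 to 987 CPM, Schwann cell markers from 87.3 to 490 CPM and fibroblast markers from 1752 to 13370 CPM, the lowest of the endothelial and fibroblast sums being that of replicate 18. Against TUMOUR STD, CHEMO STD had 3 of 11 tested immediate early genes called lower, and 1 of 10 tested growth hormone axis genes, again Cish, was called higher. In the same comparison 1 of 12 macrophage markers and 1 of 2 tested lymphocyte markers were called higher, and the 1 tested keratinocyte marker lower. Over all 11716 genes tested, 170 were called lower and 109 higher.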

How the data were processed

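RNA from 20 gastrocnemius libraries was sequenced as read pairs. Per the labels and the study's methods, the authors trimmed reads with Trim Galore 0.4.1, aligned them to Rnor 6 with TopHat2 2.0.10 and Bowtie2, and deposited raw counts per gene. The methods name Partek Flow and an Ensembl annotation of that assembly for the step from alignments to genes. Its counting settings, and whether strand was used, are not given in the sources. The table has 32883 rows, and 388 carry no gene name (0.102% to 0.272% of a library's counts) and were left out.

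The main test was edgeR 4.0.16 in R 4.3.3, with its default filter (minimum count 10, minimum total 15), TMM factors and a quasi-likelihood fit of the 3 groups together, with CHEMO STD replicates 1 and 2 summed. Called means an unadjusted p below 0.05 and at least 1.5-fold, the thresholds of the study's methods. Adjusted p values are Benjamini-Hochberg over the 11716 genes tested. CPM (counts scaled by library size) are on TMM library sizes, and log2 CPM used a prior count of 2. Single genes were tested by two-sided exact permutation, and pairs by 100000 permutations within groups. The script was tested on simulated data. The genes named were all members, the called genes and up to 5 most abundant genes of each pathway list, and the 3 genes most like each member. Genes named beyond that rule (Il6, Osm, Lif, Jak3, Fgl2, Il4r and Ptpn1) were chosen after their values were seen. Some genes of the lists are counted but not reported here by name. The members and lists were chosen with earlier results of these data known.

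Alternatives were RLE factors, library totals, no filter, a mean of at least 10 counts, DESeq2 1.42.0, limma voom (3.58.1) with quality weights, replicates 1 and 2 kept apart, only the 2 groups compared, p without a fold threshold, and each sample left out. Leaving out 4 samples together, leaving out CHEMO FO replicate 18 from the correlations, and the alternatives for single pathway genes were chosen after seeing the data. Nothing in the labels says that samples are separate rats beyond their titles, so p values measure the spread between these samples.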

Additional observations from a re-analysis of the deposited data

Results flagged for a closer look

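In groups of 5, 6 and 8 samples, the gap between the most extreme sample and its neighbour was compared with the range of the group by Dixon's criterion, for the 10 members and the 12 called pathway genes. For independent values with a normal spread, chance alone flags about 1 in 20 groups. Of 66 checks 18 were flagged, and 12 of these were CHEMO FO replicate 18. These counts cannot be set against that rate, because all genes share the same samples. The pathway genes also entered because they were called, and the calls of Mt2A and Timp1 were lost without replicate 18.

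Among the members, replicate 18 stood out as the highest of CHEMO FO for Stat3 (309 CPM, next 105), Osmr (46.2 CPM, next 12.4), Il6st (337 CPM, next 181), Jak2 (106 CPM, next 50.8), Il6r (55.8 CPM, next 23.0) and Socs3 (10.2 CPM, next 5.57). Among the pathway genes it stood out for Mt2A (725 CPM, next 11.1), Timp1 (60.5 CPM, next 6.60), Myc (28.3 CPM, next 9.41), Nfil3 (143 CPM, next 51.7), Cebpd (92.0 CPM, next 36.5) and Ptpn2 (31.5 CPM, next 20.7).

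The sample of CHEMO STD replicates 1 and 2 was the highest of its group for Cebpb (40.0 CPM, next 22.3) and Cebpd (43.0 CPM, next 18.9). TUMOUR STD replicate 12 was the highest of its group for Socs2 (19.1 CPM, next 13.5) and Mt2A (5.67 CPM, next 1.84). TUMOUR STD replicate 11 was the lowest of its group for Jak1 (171 CPM, next 194), and CHEMO FO replicate 16 the highest for Egr1 (15.0 CPM, next 6.89).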

How the results depend on the processing

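The count of members called was the same in CHEMO STD versus TUMOUR STD (0) under every alternative run. In CHEMO FO versus CHEMO STD it was 0 to 3 with single samples left out, and in CHEMO FO versus TUMOUR STD 0 to 2, and 1 with 4 samples left out. Of the pathway genes, 4 to 7, 2 to 7 and 6 to 12 were called with single samples left out in the 3 comparisons; in CHEMO FO versus CHEMO STD 8 were called without the filter and 1 with 4 samples left out, and in CHEMO FO versus TUMOUR STD limma voom called 6.

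Over all genes, 279, 195 and 422 were called. Without the filter there were 971, 722 and 1116 and without a fold threshold 762, 528 and 1059. With 4 samples left out there were 175 in CHEMO STD versus TUMOUR STD and 241 in CHEMO FO versus TUMOUR STD. With single samples left out they ran from 161 (TUMOUR STD replicate 10) to 603 (CHEMO STD replicates 1 and 2), with 530 and 450 without TUMOUR STD replicates 8 and 11, then from 153 to 266, and from 273 (CHEMO FO replicate 18) to 584. DESeq2 gave 11 genes past an adjusted p of 0.05 in CHEMO FO versus TUMOUR STD and 0 in the other comparisons, and edgeR gave 0 in all.

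The direction of the members was the same under RLE factors and library totals. Without CHEMO FO replicate 18 the change turned in CHEMO FO versus CHEMO STD for Osmr (-0.35), Jak2 (-0.06) and Lifr (0.01), and in CHEMO FO versus TUMOUR STD for Osmr (-0.23), Stat3 (-0.10) and Il6st (-0.10), none of them called. Timp1 in CHEMO FO versus TUMOUR STD ran from -0.105 (without replicate 18) to 1.52 with single samples left out. It was -0.082 in DESeq2, whose default settings can replace outlying counts in CHEMO FO. Of the correlations, r without the 2 farthest samples was 0.114 (Stat3 and Socs3), -0.342 (Stat3 and Osmr), 0.034 (Stat3 and Cebpb), 0.270 (Socs3 and Cebpb), 0.631 (Il6r and Il6st) and 0.215 (Jak1 and Il6st). Socs3 and Cebpb gave a rho of 0.539 and r = 0.514 without replicate 18, neither of them past the adjusted threshold, and Stat3 and Osmr gave -0.186 without it. The causes were not tested. No paired analysis was possible because the groups share no replicate numbers. Depth limits the ligands and Socs3, with as few as 8 counts.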
